A study of Homo sapiens with 10 samples.

Results

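TEX10 belongs to a nuclear complex that was followed here at the mRNA level through 7 genes, TEX10, PELP1, WDR18, SENP3, LAS1L, NOL9 and MDN1, out of 57820 genes measured. The genes were chosen by name, as the subunits and partners of the rixosome (also called the PELP1 complex), and each symbol matched 1 gene in the files. RNA of HCT116 cells, an established human colorectal cancer line, was sequenced in 10 libraries. Cells were exposed for 24 h to lentivirus carrying an shRNA and were then kept in puromycin for 3 days. The groups were TEX10 knockdown (TEX10_sh, 3 libraries) with its negative controls (shNC1, 3 libraries), and knockdown of RELA, the NF-κB subunit also called p65 (p65_sh, 2 libraries), with its own negative controls (shNC2, 2 libraries). All 4 groups had thus been infected and selected. The study describes a pair of shRNAs for each target, and which of them was sequenced is not given in the sources used here. Whether the libraries of a group stem from separate cultures is not labelled. The p-values cover only spread between libraries, which may be technical and is estimated in part from other genes.

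In the nucleolus the complex helps to make the large ribosomal subunit. PELP1, TEX10 and WDR18 form its core, and LAS1L cuts within the internal spacer ITS2 in the precursor of ribosomal RNA. NOL9 is the polynucleotide kinase that works with LAS1L, and SENP3 is a protease that removes SUMO from PELP1 and other proteins. MDN1 is a very large AAA ATPase that acts on the maturing large subunit together with the core. Outside ribosome assembly, complex members are known as coregulators of transcription, PELP1 with nuclear receptors and TEX10 with SOX2 in stem cells, and the rixosome has been linked to chromatin marked by Polycomb and HP1.

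The promoters of 4 members are shown because the study lowered RELA, a factor that binds DNA, and because these members either hold a match to the NF-κB consensus (TEX10 and WDR18) or had the largest changes after RELA knockdown (NOL9 and SENP3). The stretches lie within the 250 bases before the RefSeq start in GRCh38.p14, are trimmed to bases without an annotated exon, and are written 5′ to 3′ on the strand of the gene at chr9:100352943-100353192 (TEX10, minus), chr19:984095-984270 (WDR18, plus), chr1:6554536-6554763 (NOL9, minus) and chr17:7561669-7561874 (SENP3, plus). Capitals mark matches to any of 3 motifs searched on both strands, the E-box CACGTG, the ETS core CCGGAAG and the NF-κB consensus.
TEX10: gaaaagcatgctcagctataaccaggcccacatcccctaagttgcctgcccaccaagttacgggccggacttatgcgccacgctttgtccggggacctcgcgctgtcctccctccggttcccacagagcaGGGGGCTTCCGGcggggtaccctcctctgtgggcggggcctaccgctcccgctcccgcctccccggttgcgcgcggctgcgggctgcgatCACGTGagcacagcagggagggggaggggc
WDR18: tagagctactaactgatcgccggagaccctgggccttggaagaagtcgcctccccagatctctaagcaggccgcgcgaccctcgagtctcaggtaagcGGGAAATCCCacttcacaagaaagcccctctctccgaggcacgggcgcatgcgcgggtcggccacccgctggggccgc
NOL9: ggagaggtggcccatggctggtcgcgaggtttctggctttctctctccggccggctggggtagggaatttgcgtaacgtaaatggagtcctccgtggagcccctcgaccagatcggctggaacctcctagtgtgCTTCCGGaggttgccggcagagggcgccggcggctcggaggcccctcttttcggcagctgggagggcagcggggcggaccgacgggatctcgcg
SENP3: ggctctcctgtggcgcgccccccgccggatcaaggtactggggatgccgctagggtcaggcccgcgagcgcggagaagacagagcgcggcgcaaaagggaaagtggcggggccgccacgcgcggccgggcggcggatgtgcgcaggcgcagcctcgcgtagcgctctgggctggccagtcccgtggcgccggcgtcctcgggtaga

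An entry was found for all 7 members. The NF-κB consensus began 120 bases before the TEX10 start and 152 bases before the WDR18 start, and 9.96% of 35116 promoter windows of the same length held it. In TEX10 it overlapped a match to the ETS core. The ETS core was also found in LAS1L (2 matches) and NOL9, against 8.52% of all windows, and the E-box in TEX10, PELP1 and MDN1, against 6.34%. SENP3 held none of the 3 motifs in its window. A match of this kind is a stretch of letters and was not tested as a binding site.

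All 7 members were detected in all 10 libraries, with 887 to 11177 reads per gene and library. Their values are given in CPM, reads relative to library size that the authors scaled with a factor for each library. The coefficient of variation within a group ran from 1.53% for MDN1 in shNC2 to 8.65% for LAS1L in shNC1. The libraries held 28606464 to 44658105 reads recovered from the CPM steps, and the mitochondrial share of these was 6.67% to 6.97% in shNC1 and 6.56% to 7.14% in TEX10_sh. The colorectal label was checked against 7 epithelial markers, of which 6 were above 1 CPM in every library, and VIL1 was above it in both shNC2 libraries but not throughout any other group. Summed epithelial markers stood at 3743 to 3863 CPM in shNC1, 4453 to 4529 CPM in TEX10_sh, 4283 to 4420 CPM in shNC2 and 4229 to 4574 CPM in p65_sh. Of 6 fibroblast markers COL1A1 alone was above 1 CPM in all libraries of a group (sums of 40.3 to 51.7 CPM), with DCN at 0 in all. Of the immune markers CD68 alone was above 1 CPM, with sums of 4.68 to 5.36 CPM in shNC1, 2.99 to 3.71 CPM in TEX10_sh, 13.8 to 14.8 CPM in shNC2 and 8.02 to 8.55 CPM in p65_sh, and the endothelial markers summed to at most 1.46 CPM. The part of these markers in the results was not tested.

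**Figure D1:**
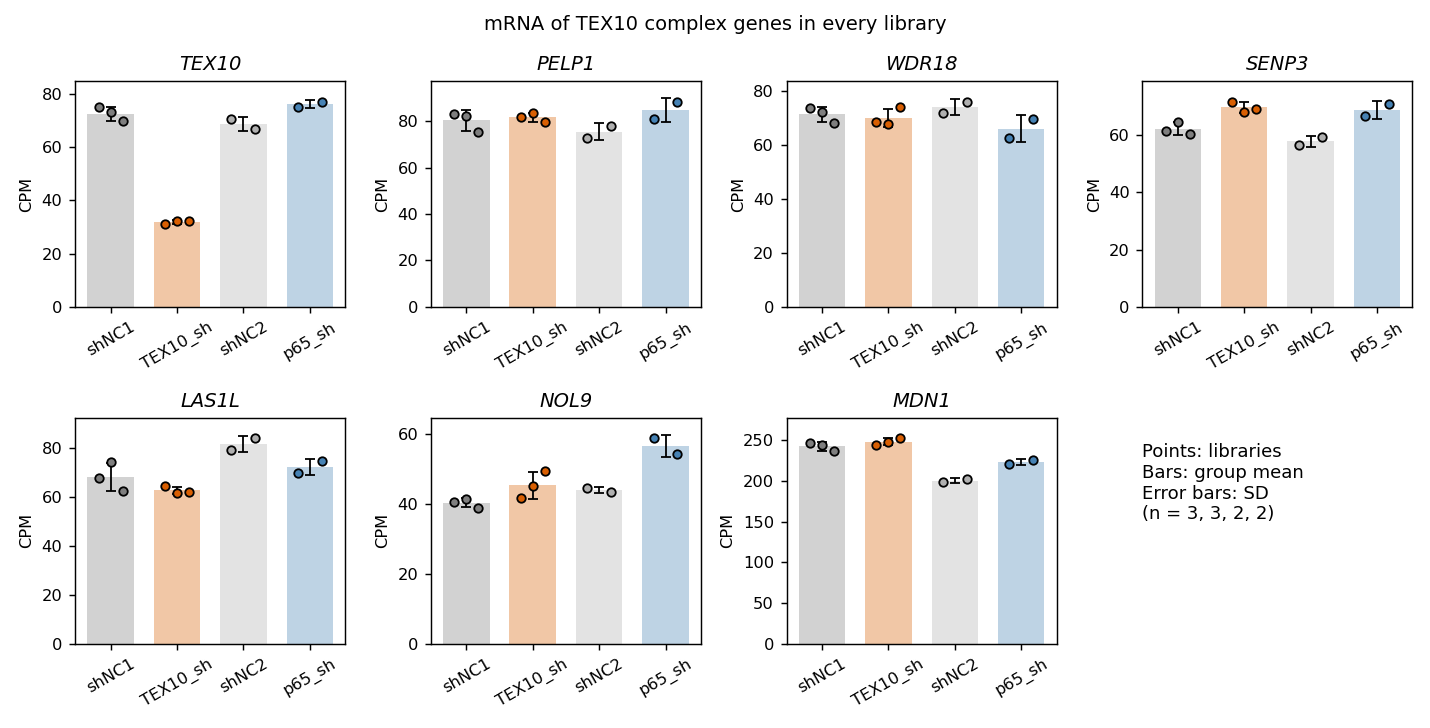
CPM of each TEX10 complex gene (y axis, from 0) in the 4 groups (x axis); points are libraries, bars group means and error bars the SD (n = 3, 3, 2 and 2). TEX10 in TEX10_sh stands at 31.2 to 32.2 CPM, below the 66.8 to 77.1 CPM of all other libraries, whereas the other panels show much smaller steps between groups.

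The first comparison asked what lowering TEX10 did to the mRNA of its partners. TEX10 itself was lower, SENP3 was slightly higher, and the remaining 5 genes did not pass the test. Calls were made with limma where the adjusted p (Benjamini-Hochberg) was under 0.01, whatever the fold change. Of the 17257 genes tested, 19.0% were called lower and 21.6% higher, beside 1 lower and 1 higher of the 7 members. The lower member was the target of the shRNA.

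TEX10 (ENSG00000136891, chromosome 9, minus strand) was at 74.9, 73.1 and 69.8 CPM in the shNC1 libraries and at 31.2, 32.2 and 32.2 CPM in the TEX10 knockdown libraries. The groups were far apart and the knockdown libraries were close to each other. The mean fell from 72.6 ± 2.61 to 31.9 ± 0.619 CPM (SD, n = 3 each). On the log2 scale the change was -1.18 (SE 0.04, 95% interval -1.26 to -1.09), or 2.26-fold lower, with an adjusted p of 1.32e-12 from limma. This checks the label of the knockdown, and the mRNA was reduced, not removed. In all 18 alternatives the log2 fold change stayed between -1.20 and -1.15.

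PELP1 (ENSG00000141456, chromosome 17, minus strand), the scaffold of the core, was at 83.2, 82.4 and 75.3 CPM in shNC1 and at 81.8, 83.6 and 79.7 CPM in TEX10_sh. WDR18 (ENSG00000065268, chromosome 19, plus strand), the WD-repeat subunit of the core, was at 74.0, 72.2 and 68.4 CPM in shNC1 and at 68.6, 67.8 and 74.0 CPM in TEX10_sh. For both core partners the groups overlapped. The log2 fold change of PELP1 was 0.03 with a 95% interval of -0.06 to 0.11 (SE 0.04, limma adjusted p = 0.601), and it changed sign with library totals or without the third shNC1 library. The log2 fold change of WDR18 was -0.03 (SE 0.04, 95% interval -0.11 to 0.06, adjusted p = 0.590). Both intervals included 0.

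SENP3 (ENSG00000161956, chromosome 17, plus strand), the SUMO protease, was at 61.6, 64.7 and 60.3 CPM in shNC1 and at 71.8, 68.3 and 69.1 CPM in TEX10_sh. Every knockdown library lay above every control library, which was also so, in one direction or the other, for 58.6% of all tested genes. The mean rose from 62.2 ± 2.27 to 69.7 ± 1.82 CPM (SD, n = 3 each), 1.12-fold, and the log2 fold change was 0.16 with a 95% interval of 0.09 to 0.24 (SE 0.04, limma adjusted p = 0.00134). Without the first TEX10_sh library the log2 fold change was 0.14 and the adjusted p 0.0106, just past the threshold.

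SENP3 shares exons with SENP3-EIF4A1, an annotated readthrough transcript into the neighbouring translation factor gene EIF4A1, over 1511 bases or 41.2% of its exon bases. Reads from the shared exons could be divided between these genes by the authors' counting, so the level of either is uncertain. SENP3-EIF4A1 was listed at 2.19, 2.82 and 1.98 CPM in shNC1 and at 2.81, 4.49 and 4.72 CPM in TEX10_sh. These groups overlapped, yet the readthrough gene passed, as its log2 fold change was 0.65 (SE 0.16, adjusted p = 0.00218). With its reads added to SENP3, a choice made after seeing the data, the log2 fold change of SENP3 was 0.19 (SE 0.04, adjusted p = 0.000303). EIF4A1, at 979 ± 23.5 CPM in shNC1 and 1015 ± 21.6 CPM in TEX10_sh (SD, n = 3 each), did not pass (log2 fold change 0.05, SE 0.03, adjusted p = 0.132).

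LAS1L (ENSG00000001497, chromosome X, minus strand), the ITS2 endonuclease, was at 67.8, 74.3 and 62.5 CPM in shNC1 and at 64.4, 61.7 and 62.0 CPM in TEX10_sh. The groups overlapped through the third control library. The log2 fold change was -0.12 (SE 0.05, 95% interval -0.22 to -0.01, adjusted p = 0.0555), and it rested on single control libraries. Without the third shNC1 library it was -0.18 (adjusted p = 0.00104) and passed, and without the second it was -0.05 (adjusted p = 0.318). NOL9 (ENSG00000162408, chromosome 1, minus strand), the kinase partner of LAS1L, was at 40.5, 41.5 and 38.9 CPM in shNC1 and at 41.6, 45.2 and 49.3 CPM in TEX10_sh. The groups were separated only by the gap between 41.5 and 41.6 CPM. The log2 fold change was 0.17 (SE 0.05, 95% interval 0.05 to 0.28, adjusted p = 0.0139), which missed the threshold. Without the first TEX10_sh library it was 0.23 (adjusted p = 0.00170) and passed, and without the third it was 0.10 (adjusted p = 0.105).

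MDN1 (ENSG00000112159, chromosome 6, minus strand), the AAA ATPase, was at 246, 245 and 236 CPM in shNC1 and at 244, 248 and 253 CPM in TEX10_sh. The groups overlapped, and the log2 fold change was 0.03 (SE 0.03, 95% interval -0.03 to 0.09, adjusted p = 0.334). The interval was the narrowest of the 7, on the member with the most reads. The median log2 fold change of the 6 members other than TEX10 was 0.03, beside 0.00 for all tested genes, whose median absolute change was 0.18. The median SE was 0.039 for the members and 0.058 for all tested genes.

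**Figure D2:**
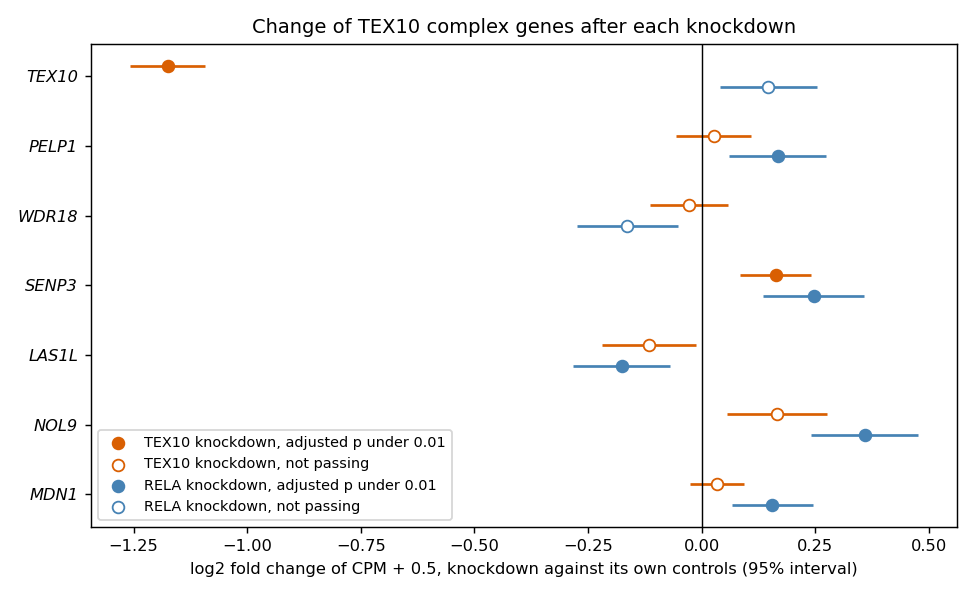
Log2 fold change of each TEX10 complex gene (x axis) with its 95% interval from limma, after TEX10 knockdown (n = 3 against 3) and after RELA knockdown (n = 2 against 2); filled points are those called. TEX10 stands at -1.18 after TEX10 knockdown, and every other value lies between -0.18 and 0.36.

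The second comparison asked whether the complex genes responded when RELA was lowered. RELA mRNA was at 92.0 and 102 CPM in shNC2 and at 29.8 and 31.5 CPM in p65_sh, 3.13-fold lower (-1.65 on the log2 scale with SE 0.06, limma adjusted p = 4.87e-32). With 2 libraries against 2, limma estimates the spread of a gene largely from genes of like level. The SE thus hardly differed between TEX10, PELP1 and LAS1L (0.05 each), and the p-values do not rest on the spread of the gene alone. Among the 7 members 4 were called higher (NOL9, SENP3, PELP1 and MDN1) and 1 lower (LAS1L), and TEX10 and WDR18 did not pass. Over the 16814 genes tested, 14.4% were called higher and 15.8% lower. The members had a smaller median SE (0.054) than all tested genes (0.080), so a change of a given size passes more readily in them. Their median log2 fold change was 0.16, and the median absolute change of all tested genes was 0.18. All changes of the members were small, the largest being 1.28-fold, and no member passed with a minimum fold change of 1.5. Without the first shNC2 library 1 member was called, and without the second 2. The mitochondrial share of reads moved with this comparison, from 6.64% and 6.45% in shNC2 to 7.42% and 7.13% in p65_sh, and its part in the results was not tested. In all 7 members the groups did not overlap, but with 2 libraries against 2 this held for 68.0% of all tested genes.

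TEX10 was at 70.6 and 66.8 CPM in shNC2 and at 75.1 and 77.1 CPM in p65_sh. Both RELA knockdown libraries were higher, but the log2 fold change of 0.15 (SE 0.05, 95% interval 0.04 to 0.25) missed the threshold of limma (adjusted p = 0.0224). With a block for the replicate number it passed (limma adjusted p = 0.0024). After TEX10 knockdown, in turn, RELA was at 80.4, 80.7 and 78.4 CPM in shNC1 and at 67.0, 66.8 and 70.3 CPM in TEX10_sh, and was called lower (log2 fold change -0.23, SE 0.03, adjusted p = 2.49e-05).

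NOL9 had the largest change of the members, from 44.6 and 43.3 CPM in shNC2 to 58.8 and 54.4 CPM in p65_sh. The mean rose from 43.99 ± 0.926 to 56.6 ± 3.11 CPM (SD, n = 2 each), and the log2 fold change was 0.36 with a 95% interval of 0.24 to 0.48 (SE 0.06, adjusted p = 1.13e-06). Apart from the fold threshold of 1.5, this call held in all alternatives, with a highest adjusted p of 0.00103. SENP3 was at 56.6 and 59.2 CPM in shNC2 and at 66.7 and 70.9 CPM in p65_sh, a rise of 1.19-fold, or 0.25 on the log2 scale (SE 0.06, 95% interval 0.14 to 0.36, adjusted p = 0.000230). Without the first shNC2 library it was 0.21 and missed the threshold (adjusted p = 0.0203). With the readthrough reads added, the log2 fold change of SENP3 remained at 0.25 (SE 0.05, adjusted p = 0.000154).

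The other 3 calls, like that of SENP3, were lost when some single libraries were left out. All 3 were also lost with all libraries kept but no filter on low values (limma adjusted p = 0.0604 for PELP1, 0.0229 for MDN1 and 0.0349 for LAS1L). PELP1 was at 72.8 and 78.0 CPM in shNC2 and at 81.1 and 88.4 CPM in p65_sh, and its log2 fold change was 0.17 (SE 0.05, adjusted p = 0.00953), just inside the threshold. The call was lost without the first shNC2 library (log2 fold change 0.12, adjusted p = 0.224), without the second (0.22, adjusted p = 0.0140) and without the second p65_sh library (0.10, adjusted p = 0.195). It was also lost by DESeq2 (adjusted p = 0.0559) and edgeR (0.0120), at a log2 fold change of 0.16 in both. MDN1 was at 198 and 203 CPM in shNC2 and at 221 and 226 CPM in p65_sh, and its log2 fold change was 0.16 (SE 0.04, adjusted p = 0.00369). The MDN1 call was lost without the first shNC2 library (0.14, adjusted p = 0.0834), the second (0.17, adjusted p = 0.0286) or the second p65_sh library (0.14, adjusted p = 0.0311), with log2 fold changes close to that of all libraries.

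LAS1L, the one member called lower, was at 79.4 and 84.0 CPM in shNC2 and at 69.9 and 74.7 CPM in p65_sh, and its log2 fold change was -0.18 (SE 0.05, adjusted p = 0.00588). The call was lost without the first shNC2 library (-0.22, adjusted p = 0.0147), the second (-0.14, adjusted p = 0.164) or the first p65_sh library (-0.13, adjusted p = 0.0920), and by DESeq2 (-0.18, adjusted p = 0.0274). WDR18 was at 72.0 and 76.2 CPM in shNC2 and at 62.6 and 69.7 CPM in p65_sh. The log2 fold change of WDR18, -0.16 (SE 0.06, adjusted p = 0.0142), missed the threshold. With a block for the replicate number it passed (limma adjusted p = 0.000752). Without the second p65_sh library it was -0.24 (adjusted p = 0.000894) and passed, and without the first it was -0.09 (adjusted p = 0.299). LAS1L and its partner NOL9 had values of opposite sign in each comparison, but after TEX10 knockdown neither passed. Leaving out a library leaves 1 library in its group, which limma then assumes to vary like the others.

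The changes of the members were also compared between the knockdowns in a fit of all 10 libraries. TEX10 was the 1 member of 7 that differed, with a difference of log2 fold changes (TEX10 knockdown minus RELA knockdown) of -1.32 (SE 0.06, 95% interval -1.45 to -1.19, adjusted p = 4.58e-12). TEX10 is the target of 1 knockdown, so its difference follows from the design. The other 6 members did not pass, while 20.0% of the 17922 genes tested differed in either direction. For SENP3, called higher in both comparisons, the difference was -0.08 (SE 0.06, 95% interval -0.21 to 0.05, adjusted p = 0.343). NOL9 and MDN1 had differences of -0.19 (SE 0.08, adjusted p = 0.0843) and -0.12 (SE 0.05, adjusted p = 0.0511), so that larger rises after RELA knockdown were not shown for them. With library totals in place of the deposited scaling, MDN1 passed (-0.16, adjusted p = 0.00844).

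Levels can be compared between genes only after division by transcript length, here that of the principal transcript of each gene in GENCODE 29, from 1608 bases for WDR18 to 18413 bases for MDN1. In CPM per kb, WDR18 was the highest member in every group and NOL9 the lowest. In shNC1 the order of the levels was WDR18 (44.5 ± 1.76), LAS1L (27.95 ± 2.42), SENP3 (23.8 ± 0.871), TEX10 (23.6 ± 0.848), PELP1 (15.2 ± 0.823), MDN1 (13.2 ± 0.292) and NOL9 (6.06 ± 0.200 CPM per kb, SD, n = 3). SENP3 and TEX10 overlapped, and all other neighbours in this order were separated in every library. This separation covers only the spread between libraries. The order also depends on the transcript chosen for each gene, and which transcripts these cells express was not checked. MDN1 thus had the most reads of the 7 genes but, per length, one of the lowest levels.

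In TEX10_sh the level of TEX10 was 10.4 ± 0.201 CPM per kb, between MDN1 (13.5 ± 0.238) and NOL9 (6.82 ± 0.583), so that it moved from the fourth place to the sixth. Its share of the summed level of the 7 genes was 15.3% ± 0.311 in shNC1 and 7.29% ± 0.169 in TEX10_sh (SD, n = 3 each). The share of TEX10 was 14.3% ± 0.898 in shNC2 and 15.6% ± 0.375 in p65_sh (SD, n = 2 each). The control groups also had unlike levels of some members. MDN1 was at 243 CPM on average in shNC1 and 201 CPM in shNC2, and LAS1L at 68.2 and 81.7 CPM. Control group and experiment cannot be told apart here, and no test was made across the experiments on levels.

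The genes that work with the complex were followed in 7 lists of known partners and pathways, and their counts are read beside the shares of all genes called (for TEX10 knockdown 19.0% lower and 21.6% higher, for RELA knockdown 15.8% and 14.4%). The lists were chosen with earlier results of these data known, so this reading is descriptive and not independent. The shares cover genes of all levels that passed the filter, whose SE were not matched to those of the lists. The first list held 17 genes of the pre-60S particle, the precursor of the large ribosomal subunit on which the complex acts. These are assembly factors and the ribosomal proteins RPL5 and RPL11. After TEX10 knockdown 10 of these were higher and 1 was lower, with a median log2 fold change of 0.22, beside 0.00 for all tested genes. RRS1, an assembly factor, rose from 43.2 ± 2.53 to 73.7 ± 3.84 CPM (log2 fold change 0.76, SE 0.05, adjusted p = 1.35e-09). PES1, a subunit of the PeBoW complex, rose from 145 ± 7.90 to 202 ± 2.91 CPM (0.47, SE 0.04, adjusted p = 1.43e-08; SD, n = 3 each), and EIF6, which keeps the subunits apart, rose by 0.42 on the log2 scale. The PeBoW subunits BOP1 (0.11) and WDR12 (0.08), also listed, did not pass. After RELA knockdown 6 factors were higher and 2 lower, with a median of 0.12, and PES1 did not pass (0.12). RRS1 rose again, from 38.9 ± 3.30 to 57.2 ± 0.652 CPM (log2 fold change 0.55, SE 0.06, adjusted p = 3.14e-11; SD, n = 2), as did its partner RPF2 (0.36) and MRTO4 (0.27). Without either shNC2 library 4 factors were called.

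The second list held 18 genes of ITS2 processing and the nuclear exosome, the RNA-degrading machine that trims what LAS1L has cut. After TEX10 knockdown 8 were higher, 1 was lower and 9 did not pass, with a median of 0.07. Among them ISG20L2, an exonuclease of ribosomal RNA processing, rose from 38.6 ± 1.47 to 61.1 ± 2.46 CPM (log2 fold change 0.65, SE 0.04, adjusted p = 2.19e-09), the exosome subunit EXOSC4 rose by 0.55 on the log2 scale, and the exosome cofactor MPHOSPH6 by 0.31. After RELA knockdown 4 were higher, 3 lower and 11 did not pass, with a median of 0.03. EXOSC6 (0.31) and EXOSC1 (0.28) rose, as did GLTSCR2 (0.20), which is known to help recruit the exosome helicase. The 7 calls after RELA knockdown became 2 without the first shNC2 library, 1 without the second and 4 without the second p65_sh library. EXOSC1 did not pass without either shNC2 library, EXOSC6 without the second shNC2 or the first p65_sh library, and GLTSCR2 without the first shNC2 library.

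Of 17 genes of the SUMO pathway, in which SENP3 works, TEX10 knockdown left 5 higher and 4 lower, and RELA knockdown 3 higher and 5 lower. NPM1, which is listed here but is not a SUMO enzyme, was among those lower in both. UBA2, a subunit of the SUMO-activating enzyme, fell from 155 ± 1.81 to 120 ± 3.28 CPM after TEX10 knockdown (log2 fold change -0.36, SE 0.03, adjusted p = 4.28e-08; SD, n = 3) and from 172 ± 6.03 to 131 ± 5.79 CPM after RELA knockdown (-0.39, SE 0.05, adjusted p = 7.07e-10; SD, n = 2). Of the other SUMO proteases listed, SENP2 and SENP5 had log2 fold changes of 0.20 and -0.18 after TEX10 knockdown, both called. SENP7 was called lower in both comparisons (-0.18 and -0.28), SENP6 was called higher only after RELA knockdown (0.27), and SENP1 passed in neither. After RELA knockdown SAE1, which pairs with UBA2, rose (0.27), and the SUMO ligase PIAS3 fell (-0.35). SENP5 did not pass without the first shNC1 or the third TEX10_sh library. The 9 calls after TEX10 knockdown became 4 without the first shNC1 library or without the second or the third TEX10_sh library, and 5 without the first TEX10_sh library. The 8 calls after RELA knockdown became 5 without the second shNC2 library.

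CHTOP is an mRNA export factor whose arginine-methylated form binds PELP1, TEX10, WDR18, SENP3 and LAS1L. CHTOP itself did not pass in either comparison. Of the 5 genes on this list, the methyltransferase PRMT5 and its cofactor WDR77 were higher, and the methyltransferase PRMT1 lower, in both. WDR77 had the largest change of the list, from 47.3 ± 3.86 to 82.5 ± 3.22 CPM after TEX10 knockdown (log2 fold change 0.80, SE 0.05, adjusted p = 1.67e-09; SD, n = 3) and from 41.3 ± 0.600 to 54.7 ± 0.793 CPM after RELA knockdown (0.40, SE 0.06, adjusted p = 8.64e-08; SD, n = 2). PRMT5 rose by 0.38 and 0.19 on the log2 scale, and PRMT1 changed by -0.10 and -0.16. The PRMT1 call after TEX10 knockdown (adjusted p = 0.00821) was lost without the first shNC1 library (adjusted p = 0.0339), the second (0.0254), the first TEX10_sh library (0.0618) or the second (0.0261), with no filter on low values (0.0329) and with all 10 libraries in 1 fit (0.0105). After RELA knockdown it was lost without either shNC2 library (0.0264 and 0.0530) or the first p65_sh library (0.0593), and PRMT5 was lost without the second shNC2 library (0.0713) or the second p65_sh library (0.0208). Without the second shNC2 library 1 gene of the list was called after RELA knockdown.

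Of 12 Polycomb and HP1 genes, 3 were lower and 1 was higher after TEX10 knockdown, and 1 was lower and 3 were higher after RELA knockdown. CBX5, which encodes HP1 alpha, fell from 287 ± 5.92 to 243 ± 4.31 CPM after TEX10 knockdown (log2 fold change -0.24, SE 0.03, adjusted p = 2.28e-06; SD, n = 3). After RELA knockdown it rose from 269 ± 7.68 to 310.1 ± 10.3 CPM (0.21, SE 0.04, adjusted p = 0.000106; SD, n = 2). The difference of these changes passed its own test (-0.44, SE 0.05, adjusted p = 6.45e-07). EED, a subunit of the Polycomb repressive complex, was higher after TEX10 knockdown (0.27) and EZH1, one of its methyltransferases, lower (-0.17), while RING1 (0.23) and CBX1 (0.26) were higher after RELA knockdown. EZH1 did not pass without the first shNC1 or the third TEX10_sh library, CBX5 after RELA knockdown without the second shNC2 library (0.18, adjusted p = 0.0178), and RING1 without either shNC2 library or the second p65_sh library. The 4 calls of each comparison became 2 without the third TEX10_sh library, and 2 without either shNC2 library or the second p65_sh library.

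Of 9 listed partners of TEX10 in transcription, 7 passed the filter on low values in each comparison (SOX2 and NANOG did not after TEX10 knockdown, and POU5F1 and NANOG did not after RELA knockdown). The list includes RELA, so it was not independent of the second knockdown, and it holds genes of the pathway that the study set out to examine. After TEX10 knockdown 4 were lower and 1 was higher. NFKB2, the NF-κB subunit gene, fell from 132 ± 3.09 to 96.4 ± 4.45 CPM (log2 fold change -0.45, SE 0.04, adjusted p = 2.69e-08) and STAT3 from 126 ± 3.85 to 102 ± 0.605 CPM (SD, n = 3 each; -0.30, SE 0.03, adjusted p = 6.47e-07). After RELA knockdown 3 were lower, RELA included, and 1 was higher. NFKB2 fell by 0.70 and STAT3 by 0.73 on the log2 scale. Without the second or the third TEX10_sh library 3 genes of this list were called after TEX10 knockdown.

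Of the nuclear receptor partners of PELP1, 7 genes were tested. After TEX10 knockdown 2 were higher and none lower, the kinase SRC (0.30) and the histone demethylase KDM1A (0.16). After RELA knockdown SRC was again higher (0.27) and 3 were lower, among them the methyltransferase CARM1 (-0.46) and the receptor RXRA (-0.21). SRC did not pass after RELA knockdown without the first shNC2 or the second p65_sh library, nor RXRA without either shNC2 library or the first p65_sh library. These 4 calls became 1 without the first shNC2 library, and 2 without the second or without either p65_sh library. Over the 7 lists, 43 genes were called after TEX10 knockdown and 38 after RELA knockdown, but with a fold change of at least 1.5 the counts were 3 and 3. The RELA count was 20 without the first shNC2 library and 19 without the second, and 24 by DESeq2.

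**Figure D3:**
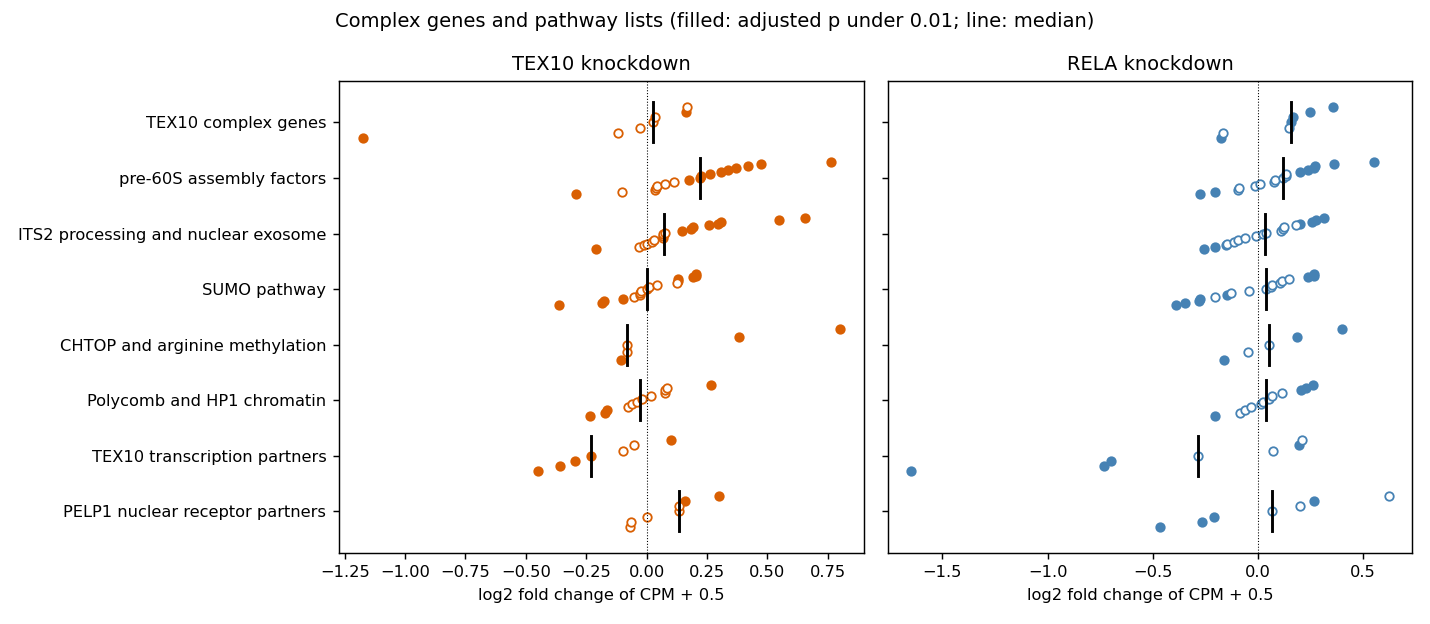
Log2 fold change (x axis) of each tested gene of the 7 members and the 7 pathway lists (rows) after TEX10 knockdown (n = 3 against 3) and RELA knockdown (n = 2 against 2); points are genes, filled where called by limma, and vertical lines list medians. The pre-60S list has the highest list median in the TEX10 knockdown panel (0.22).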

How the data were processed

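mRNA of 10 HCT116 libraries was sequenced with a kit that does not mark strand. The submitters' processing notes name STAR 2.4.2a, RSEM 1.2.29, edgeR 3.8.5 and hg19. The authors deposited CPM values of 57820 genes, scaled by a factor for each library. Dividing by the value of 1 read gave whole reads within 0.01 for 100% of values. A gene at 0 reads could be at 0.0678 to 0.105 CPM (3 reads, counting error only).

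Genes were filtered with filterByExpr (minimum count 10, total 15) and tested with limma 3.58.1 under R 4.3.3, using its trend option on log2(CPM + 0.5), the scale of all fold changes. The Benjamini-Hochberg threshold was 0.01. Alternatives used edgeR 4.0.16 and DESeq2 1.42.0 on recovered reads, other scalings, pseudocounts, thresholds and filters, a block for the replicate number, and each library left out. The members and lists were chosen with earlier results of these data known. Named were the members, RELA, overlapping genes, up to 3 called genes per list by smallest adjusted p, and the genes most alike by Pearson r. Scripts were tested on simulated data. Promoters came from RefSeq (GRCh38.p14), lengths and exons from GENCODE 29 (GRCh38). The shRNA sequences are not shown. One listed gene is not reported here.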

Additional observations from a re-analysis of the deposited data

Results flagged for a closer look

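TEX10 is the target of one knockdown and not of the other, and its change differed between them by -1.32 on the log2 scale. Among the 19 named partner genes called in both comparisons, 7 also differed in the fit of all 10 libraries at an adjusted p under 0.01 from limma. Of all genes tested in that fit 20.0% differed, but the 19 were picked by their calls. RELA, the target of the second knockdown, had a difference of 1.42 (TEX10 knockdown minus RELA knockdown). CBX5 (-0.44), MPHOSPH6 (0.51) and PIAS3 (0.48) were called in opposite directions, CBX5 lower and MPHOSPH6 and PIAS3 higher after TEX10 knockdown. The fall of MPHOSPH6 after RELA knockdown was -0.20, just inside the threshold (limma adjusted p = 0.00884). Listed genes that were not named, GNL2, EXOSC5 and SUMO3, were also called higher after TEX10 knockdown and lower after RELA knockdown. STAT3 (0.44) and NFKB2 (0.25) were lower in both comparisons, with the larger fall after RELA knockdown. WDR77 (0.40) was higher in both, with the larger rise after TEX10 knockdown. Single libraries were not tested as outliers, as no group holds 4.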

How the results depend on the processing

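The number of members called after TEX10 knockdown (2) was within 1.5 times of itself in all alternatives but a fold change of at least 1.5, which left 1 member and 3 of the 43 listed genes, and it ran from 2 to 3 when single libraries were left out. After RELA knockdown the 5 members became 2 with no filter on low values, 3 by DESeq2, 3 with all 10 libraries in 1 fit and 0 with a fold change of at least 1.5, and ran from 1 to 4 when single libraries were left out. The 38 listed genes became 22 with no filter, 24 by DESeq2 and 3 with the fold threshold, and ran from 19 to 32 when single libraries were left out. The difference between the knockdowns was called for 1 member, TEX10 as the target of 1 knockdown, and for 2 with library totals. The sign turned for PELP1 after TEX10 knockdown (0.03) with library totals (-0.00238) and, when single libraries were left out (-0.0188 to 0.0524), without the third shNC1 library. It turned for LAS1L in the difference (0.06) without that library, in a range of -0.000733 to 0.123. The cause of these changes was not tested. Same-numbered libraries did not deviate together (correlations of -0.021 to 0.038), so the numbers were not taken to pair the libraries. In the RELA comparison, 2 libraries per group fix all correlations at the same size (0.027), so they say little about pairing there. With the replicate block, 2 members were called after TEX10 knockdown, 7 after RELA knockdown and 1 in the difference, and 40 and 48 listed genes. Each member had at least 887 reads in a library, and the RELA comparison rests on 2 libraries per group.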

Other observations

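The genes whose levels followed those of the members most closely were sought among 11717 genes whose mean was 5 CPM or more, by Pearson r over the 10 libraries after centring each experiment on its mean. These values describe the libraries, which share the same group differences, and carry no test. For TEX10 they were DENND5B (r = 0.997), HIPK1 (0.996), NES (0.995), LASP1 (0.993) and CDC42 (0.992). HIPK1 and NES also had log2 fold changes close to that of TEX10 after TEX10 knockdown, -1.22 and -1.25, whereas DENND5B was at -0.35. For SENP3 the closest were SLC2A6 (0.991) and AVEN (0.982), for MDN1 APEX1 (0.992), a DNA repair endonuclease, and TSPAN17 (0.986), and for LAS1L TACC3 (0.985), a protein of the mitotic spindle, and WNK2 (0.962). The values were lower for NOL9 (COQ4 at 0.968 and MRM1 at 0.967), PELP1 (GNB3 at 0.966 and DDAH2 at 0.956) and WDR18 (NAT14 at 0.962 and MAP4K2 at 0.957).

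Of the genes that overlap a member on the opposite strand, AC091153.3 at PELP1 reached at most 0.366 CPM and AL096678.1 at MDN1 at most 0.130 CPM. As the kit does not mark strand, reads from such a pair cannot be told apart.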
